A study of Mus musculus with 13 samples.

Results

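Respiratory complexes II to V were followed in mouse cortical neurons exposed to rotenone, through 43 probes for 39 genes among the 24613 bead array probes with a signal. The members were all probes whose gene symbol is Sdha, Sdhb, Sdhc, Sdhd or Cyc1, or starts with Uqcr, Cox4, Cox5, Cox6, Cox7, Cox8 or Atp5. Complex II had 6 probes for 4 genes, complex III had 6 probes for 6 genes, complex IV had 16 probes for 14 genes and complex V had 14 probes for 14 genes. The last member, Cox7a2l, encodes a factor that joins complexes into supercomplexes and was kept apart. Another 9 probes, for 8 genes, carry the accession of a subunit but another or no symbol, and lie outside this rule (Uqcrh, Uqcr10, Uqcrq, Cox6b2, Cox7b2, Atp5md, Atp5mpl and a second probe for Atp5j).

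Complex II (succinate dehydrogenase) takes electrons from succinate, complex III passes electrons from ubiquinol to cytochrome c, complex IV (cytochrome c oxidase) hands them to oxygen, and complex V (ATP synthase) uses the proton gradient to make ATP. Rotenone blocks complex I, which stands upstream of complex III, so electrons from NADH no longer enter the chain, while the succinate route through complex II does not depend on complex I. All members are nuclear genes, and several subunits of complexes IV and V exist as isoforms that differ between heart or skeletal muscle and other tissues.

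The cells were primary cortical neurons from Swiss albino mouse fetuses of gestational day 15 to 16, at day 5 of culture. Each of 4 control samples received vehicle, and rotenone at 10 nM was left on 3 samples for 8 h, on 3 for 15 h and on 3 for 24 h, all measured on Illumina arrays. No harvest time of the controls is stated, so drug and time in culture cannot be told apart, and each time against control uses the same 4 controls. Nothing says that samples were separate cultures, and p-values therefore cover the spread among these samples alone. Because the RNA came from whole cultures, fewer cells of a type and less RNA per cell cannot be told apart.

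The mean bead signal per array lay between 325 and 405 in controls, between 340.4 and 403 at 8 h, between 255 and 287 at 15 h and between 222 and 259 at 24 h. Replicate 1 at 15 h stood apart, with a mean correlation of 0.974 with its own group, against 0.985 or more for the other 12 arrays. Of the marker probes, 19 of 24 for neurons passed the detection filter, as did 10 of 12 for astrocytes, 9 of 13 for the oligodendrocyte lineage, 8 of 14 for microglia and 10 of 17 for fibroblasts, so transcripts of neurons and of other cells were both detected. The summed signal of the neuron markers held 0.398% to 0.453% of all signal on control arrays. That share was 0.408% to 0.454% at 8 h, 0.0967% to 0.160% at 15 h and 0.137% to 0.140% at 24 h. Oligodendrocyte lineage markers held 0.147% to 0.161% on control arrays, 0.0950% to 0.131% at 8 h, already below all controls, 0.127% to 0.197% at 15 h and 0.0577% to 0.0641% at 24 h. Astrocyte markers held 0.197% to 0.218% on control arrays, 0.410% to 0.523% at 15 h and 0.380% to 0.394% at 24 h. Microglia markers held 0.0490% to 0.0508% at 24 h, against 0.0159% to 0.0192% on control arrays, and fibroblast markers held 0.167% to 0.191% at 24 h, against 0.0243% to 0.0293% on control arrays. A summed share does not hold for every probe of a list. In the quantile-scaled test described below, 2 astrocyte probes were called lower and 6 higher at 24 h. So were 3 and 6 fibroblast probes, the 10 tested covering 4 genes. Neuron probes gave 14 lower and none higher, the oligodendrocyte lineage 6 and 1, and microglia none and 6. All probes gave 27.0% lower and 25.9% higher. With median scaling, also described below, astrocyte probes gave 2 lower and 2 higher at 24 h, and fibroblast probes 3 and 6. Neuron probes then gave 16 and 1, the oligodendrocyte lineage 8 and none, and microglia none and 4. All probes gave 47.1% and 12.8% with that scaling. The shifts in share, at 8 h that of the oligodendrocyte lineage and at 15 h and 24 h those given for each list, moved with the results below, and their part in them was not tested.

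Of the 43 member probes, 36 were detected on all 13 arrays and 38, for 36 genes, passed the filter of a detection p under 0.05 on at least 3 arrays. The detection p is the chance that background beads give such a signal. The probes of Sdha, which encodes the flavoprotein subunit of complex II, and of Atp5j, a stalk subunit of complex V, were detected on none of the arrays, as were second probes of Sdhb and Sdhc. Uqcrfs1, the Rieske iron-sulfur protein of complex III, was detected on 2 arrays, both at 15 h. Their levels were not well above background, so 3 probes of complex II, 5 of complex III, 16 of complex IV and 13 of complex V were tested. The median mean bead signal of the tested probes was 1762 for complex II, 1967 for complex III, 4229 for complex IV and 3369 for complex V.

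The comparisons ask how each complex stood after each time in rotenone. Probes were tested with limma on log2 signal after quantile normalization, which gives every array the same distribution of signals, and called at an adjusted p under 0.05 over all 14345 probes kept. At 8 h no member was called in either direction, where limma called 0.188% of all probes lower and 0.0976% higher, and 3 members (Cox8b, Atp5h and Atp5o) had an unadjusted p under 0.05, as did 9.63% of all probes. At 15 h 6 members were called lower and 6 higher, against 23.7% and 24.2% of all probes. At 24 h 5 were called lower and 4 higher, against 27.0% and 25.9% of all probes, so neither count stood above that background. The median member differed from control by -0.11 at 8 h, -0.07 at 15 h and -0.06 at 24 h on the log2 scale, and the median of all probes by 0.02 or less in size.

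The counts moved with single arrays and chips, and so did those over all probes. Without replicate 1 at 15 h, whose spread enters the shared error, 10 members were called lower and 4 higher at 24 h, where 30.0% and 29.0% of all probes were called. The arrays lay on 2 chips, each holding all 4 groups. With the chip that each array's values matched as a block, 11 members were called lower and 8 higher at 15 h (24.6% and 25.1% of all probes), and 6 lower and 4 higher at 24 h (27.2% and 26.2%). Within those chips 7 and 24 members were called in either direction at 15 h (28.5% and 59.0% of all probes), and 3 and 18 at 24 h (30.2% and 61.4%). With the chip given in the labels as a block, 6 were called lower and 7 higher at 15 h (23.1% and 23.5%), and 5 lower and 4 higher at 24 h (26.6% and 25.5%). Within its chips 3 and 5 members were called at 15 h (30.0% and 21.1% of all probes), and 1 and 7 at 24 h (24.9% and 40.3%).

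**Figure D1:**
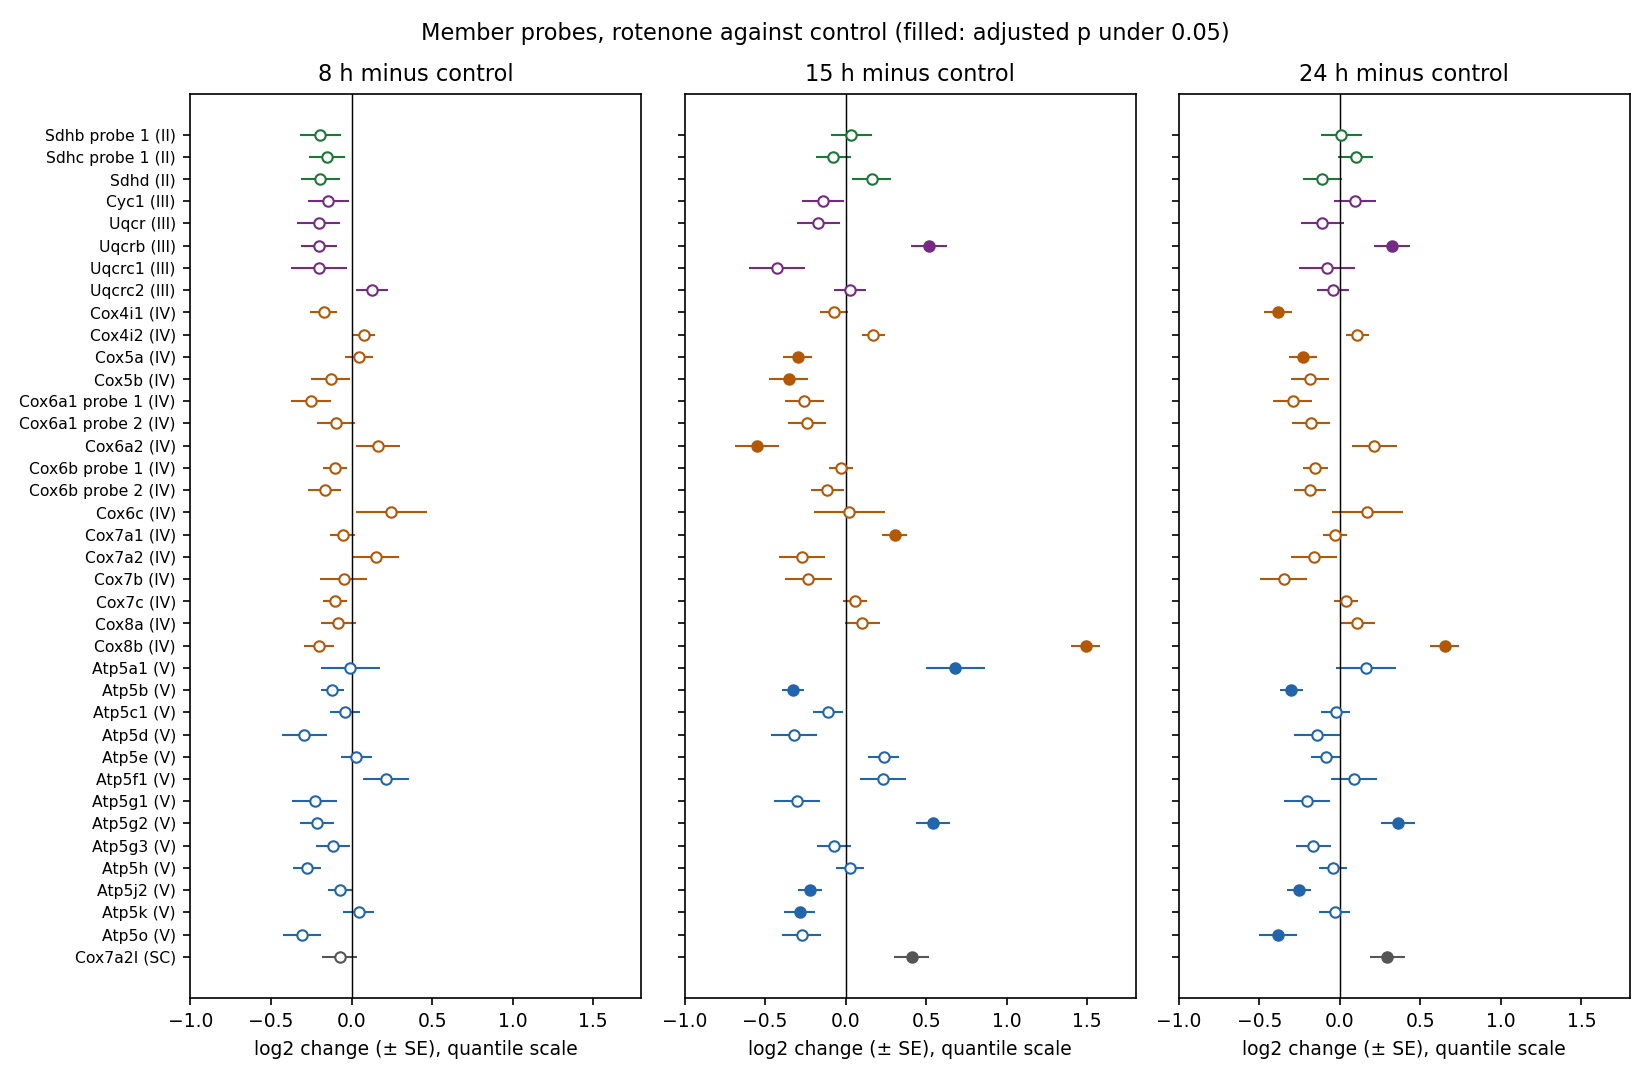
Log2 change (x axis, ± standard error of the limma fit) of the 38 tested member probes (y axis, with the complex in brackets, SC for the supercomplex factor Cox7a2l) at 8 h, 15 h and 24 h of rotenone minus control, on the quantile scale. Filled points have an adjusted p under 0.05: none at 8 h, 12 at 15 h and 9 at 24 h, with Cox8b far to the right at 1.49 and 0.65.

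How many members moved, and which way, depended on the scaling. With median scaling, which sets only the median of each array equal, 25 members were called lower and 1 higher at 15 h, against 39.4% and 12.3% of all probes, and 29 lower and 1 higher at 24 h, against 47.1% and 12.8%. The authors' normalized values, also median-scaled, called 23 lower and 1 higher at 15 h (38.5% and 12.2% of all probes) and 28 lower and 1 higher at 24 h (44.3% and 13.9%). Without any scaling 27 were called lower and 1 higher at 15 h (45.7% and 7.12%), and 35 lower and 1 higher at 24 h (58.9% and 7.7%). The member called higher was Cox8b each time. Under median scaling the median of all probes itself lay at -0.14 at 15 h and -0.23 at 24 h, and that of the 1643 probes with a mean bead signal of 1000 or more at -0.52 and -0.71. The members' medians were -0.46 and -0.60, and of the bright probes 62.5% were called lower and 8.4% higher at 15 h and 72.5% lower and 6.51% higher at 24 h. With quantile scaling the bright probes gave 32.7% lower and 28.4% higher at 15 h, and 33.7% and 27.6% at 24 h. Members were bright probes for the most part, and how far their lower calls under median scaling follow from brightness was not tested.

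**Figure D2:**
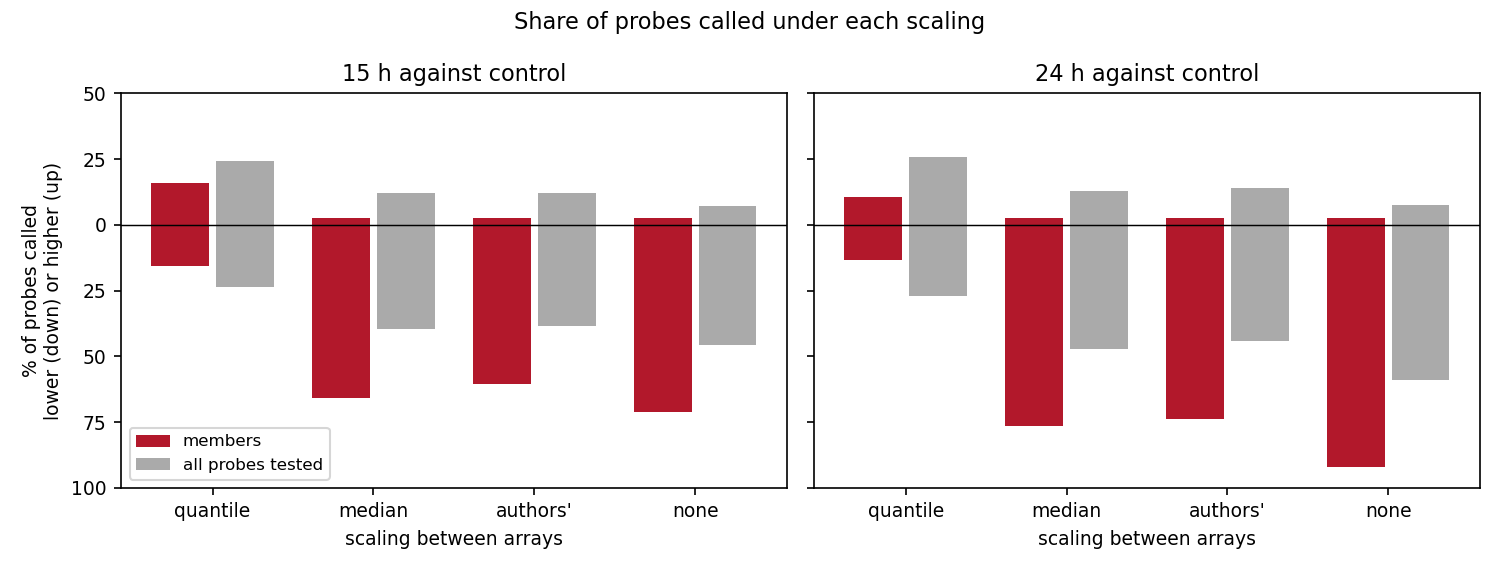
Percent of the 38 member probes and of all 14345 probes tested that limma called higher (upward bars) or lower (downward bars) at 15 h and 24 h against control, under 4 ways of scaling the arrays (x axis). Quantile scaling called 6 lower and 6 higher members at 15 h, while the other 3 scalings called 23 to 27 lower and 1 higher.

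The members' share of all bead signal, which uses no scaling beyond the total, was 1.61% ± 0.0292 at 24 h (SD, n = 3), against 1.77% ± 0.0542 in controls (SD, n = 4). All 24 h arrays (1.59% to 1.65%) lay below all control arrays (1.69% to 1.81%), while 8 h (1.59% to 1.74%) and 15 h (1.57% to 1.70%) overlapped with them. By complex the 24 h arrays lay below all controls for complex III (0.119% to 0.126%, against 0.134% to 0.143%), complex IV (0.670% to 0.705%, against 0.722% to 0.787%) and complex V (0.726% to 0.741%, against 0.763% to 0.803%). Complex V lay below all controls at 8 h too (0.673% to 0.762%), while at 15 h (0.703% to 0.765%) it overlapped with them. Complex II overlapped at 24 h, at 0.0660% to 0.0690%, against 0.0650% to 0.0765% in controls. No test was run on these shares. The signal summed is not background-subtracted, so background is part of every total. The undetected Sdha probe had a mean bead signal of 40.3 in controls and 36.2 at 24 h. The mean signal per array was 325 to 405 in controls and 222 to 259 at 24 h. How far background lowers the shares at 24 h was not tested, and the marker shares above carry the same limit.

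**Figure D3:**
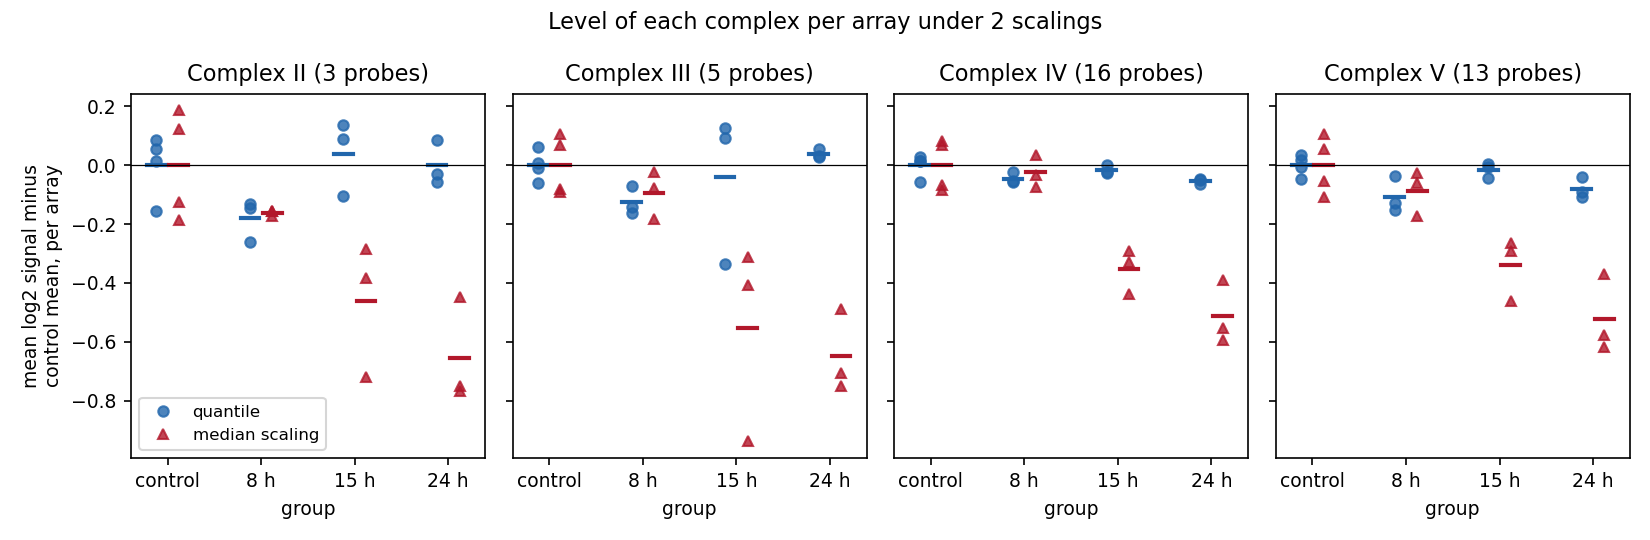
Mean over the tested probes of each complex of the log2 signal minus the control mean (y axis), for each array (points, with the group mean as a bar) of control, 8 h, 15 h and 24 h, under quantile and median scaling. On the quantile scale every group mean lies within 0.18 of control, while under median scaling the 24 h means lie between -0.51 for complex IV and -0.66 for complex II.

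In complex II no probe was called against control at any time on the quantile scale. Sdhb encodes the iron-sulfur subunit, and Sdhc and Sdhd the membrane anchors. Sdhb (probe 1) had log2 signals of 10.41, 10.89 and 10.48 at 8 h, 10.60, 10.97 and 10.89 at 15 h and 10.81, 10.68 and 10.90 at 24 h, against 10.87, 10.89, 10.59 and 10.80 in controls. Every treated group overlapped the controls, and the log2 difference at 24 h was 0.01 ± 0.13 (SE, limma adjusted p = 0.962). Sdhc (probe 1) differed by 0.10 ± 0.11 at 24 h and Sdhd by -0.11 ± 0.12, with adjusted p of 0.475 and 0.477. Under median scaling all 3 probes were called lower at 24 h, by 0.72 for Sdhb, 0.58 for Sdhc and 0.67 for Sdhd.

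In complex III the probe called on the quantile scale was that of Uqcrb, the ubiquinone-binding protein subunit. Its log2 signal was 9.30, 9.67 and 9.37 at 8 h, 10.36, 10.14 and 9.99 at 15 h and 9.98, 9.96 and 9.98 at 24 h, against 9.75, 9.57, 9.58 and 9.69 in controls. Arrays at 15 h and 24 h all lay above all controls. On the quantile scale Uqcrb was higher by 0.51 ± 0.11 at 15 h (limma adjusted p = 0.00124) and by 0.33 ± 0.11 at 24 h (adjusted p = 0.0217), but under median scaling the differences were 0.01 (not called) and -0.35 (called lower). The call at 24 h was also lost without control replicate 2 or without any of the 24 h replicates (adjusted p = 0.0524 to 0.0616).

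The other tested subunits of complex III were not called at any time on the quantile scale. Uqcrc1, a core protein, differed by -0.43 ± 0.17 at 15 h (adjusted p = 0.0537), with replicate 1 at 9.99 far below the 10.95 and 10.88 of the other 15 h arrays and controls at 10.82 to 11.22. It was called without control replicate 3 (-0.50, adjusted p = 0.0394) and without 15 h replicate 2 or 3, but without 15 h replicate 1 the difference was -0.12 (adjusted p = 0.347). Cyc1, the cytochrome c1 heme subunit, differed by -0.14 at 15 h and 0.10 at 24 h, Uqcrc2, the other core protein, by 0.03 and -0.04, and Uqcr, a small subunit, by -0.17 and -0.11. Without 15 h replicate 1 the direction at 15 h turned for Cyc1 (0.061) and Uqcr (0.060), and Uqcrc2 stood at 0.13. All 4 of these probes were called lower at both times under median scaling, by 0.46 to 0.97.

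In complex IV, 3 probes were called lower and 2 higher at 15 h, and 2 lower and 1 higher at 24 h, on the quantile scale. Among the subunits used in most tissues, Cox5a, which binds near the core of the enzyme, was lower at both times in all 4 scalings. Its log2 signal was 12.00, 12.28 and 12.08 at 8 h, 11.67, 11.86 and 11.80 at 15 h and 11.80, 11.82 and 11.92 at 24 h, against 11.97, 12.04, 12.10 and 12.19 in controls. The 15 h and 24 h arrays all lay below the lowest control, while the 8 h arrays overlapped with the controls. Cox5a fell by 0.30 ± 0.09 at 15 h (limma adjusted p = 0.0112) and by 0.23 ± 0.09 at 24 h (adjusted p = 0.0404). The call at 24 h was lost with any of 6 arrays left out (control replicates 2, 3 and 4, 8 h replicate 3, and 24 h replicates 1 and 2, adjusted p = 0.0508 to 0.124).

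Cox4i1 is the common isoform of subunit 4, the largest of the nuclear-encoded subunits. It had log2 signals of 13.10, 13.29 and 13.01 at 8 h, 13.29, 13.13 and 13.28 at 15 h and 12.85, 12.91 and 13.00 at 24 h, against 13.37, 13.34, 13.15 and 13.36 in controls. All 24 h arrays lay below all other 10 arrays. Cox4i1 fell by 0.38 ± 0.08 at 24 h against control (limma adjusted p = 0.00112) and by 0.31 ± 0.09 against 15 h (adjusted p = 0.0224), and both were called in all 4 scalings. At 15 h it differed from control by -0.07 (adjusted p = 0.502). Cox5b, a zinc-binding subunit, fell by 0.35 ± 0.12 at 15 h, where replicate 1 had 12.22 against 12.80 and 12.86 in the other 15 h arrays and 12.91 to 13.13 in controls. Without that array its difference was -0.15 (adjusted p = 0.0796), and without control replicate 1 it was -0.30 (adjusted p = 0.0685). Within matched chip 1, which did not hold 15 h replicate 1, it was -0.10.

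The remaining common subunits were not called against control on the quantile scale. At 24 h Cox6b differed by -0.15 (probe 1) and -0.18 (probe 2), Cox7b by -0.35, Cox6c by 0.17, Cox7c by 0.04 and Cox8a by 0.11. Cox6c varied most between arrays, with 13.13, 12.01 and 11.87 at 15 h and 12.42, 12.50, 12.39 and 11.95 in controls. Without 15 h replicate 1, Cox6c (-0.37), Cox7a2 (-0.45) and Cox7b (-0.44) were called lower at 15 h. At 24 h Cox7b was called lower without control replicate 4, 15 h replicate 1 or 3, or 24 h replicate 1 (adjusted p = 0.00928 to 0.0412).

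The isoforms of complex IV subunits known from heart and skeletal muscle, Cox8b, Cox6a2 and Cox7a1, were all called at 15 h. Cox8b, the muscle form of subunit 8, had log2 signals of 6.12, 5.93 and 6.11 at 8 h, 7.67, 7.84 and 7.74 at 15 h and 6.82, 6.89 and 7.02 at 24 h, against 6.26, 6.32, 6.05 and 6.39 in controls. In bead signal as deposited these were 54.8, 40.0 and 48.0 at 8 h, 137.5, 198.6 and 171.6 at 15 h and 73.8, 78.1 and 95.9 at 24 h, against 65.3, 65.1, 48.8 and 63.1 in controls. The 15 h arrays were the highest of all, the 24 h arrays came next, and neither overlapped with the controls.

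Cox8b rose 2.81-fold at 15 h (log2 1.49 ± 0.09, limma adjusted p = 7.99e-09) and 1.57-fold at 24 h (0.65 ± 0.09, adjusted p = 1.77e-05), and fell by 0.84 between 15 h and 24 h (adjusted p = 1.96e-05). These calls were kept in all 28 alternative fits. The probe was dim: it was detected on 3 of 4 control arrays, on none at 8 h and on all 3 at 15 h and at 24 h. Set against 8 h the level is therefore a bound, at least 2.86-fold higher at 15 h (adjusted p = 4.64e-09) and at least 1.60-fold higher at 24 h. The common isoform Cox8a had 11.99, 12.34 and 12.37 at 15 h and 12.26, 12.16 and 12.30 at 24 h, against 12.15, 12.00, 12.02 and 12.35 in controls, and overlapped with the controls at every time.

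The promoter of Cox8b is shown because this gene had the largest change among the members. It covers 300 bases around the transcription start in RefSeq, build GRCm38.p6, at chr7:140900397-140900696 on the minus strand, and holds no match to the NRF1 motif described below.
Cox8b: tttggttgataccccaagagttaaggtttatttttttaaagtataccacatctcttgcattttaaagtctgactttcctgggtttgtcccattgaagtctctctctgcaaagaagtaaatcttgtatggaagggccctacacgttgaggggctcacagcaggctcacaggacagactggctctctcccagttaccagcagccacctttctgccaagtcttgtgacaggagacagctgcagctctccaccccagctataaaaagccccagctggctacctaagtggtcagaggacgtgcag

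Cox6a2, the muscle form of subunit 6a, moved the other way. Its log2 signal was 8.51, 8.69 and 8.52 at 8 h, 8.11, 7.60 and 7.86 at 15 h and 8.62, 8.71 and 8.54 at 24 h, against 8.26, 8.22, 8.75 and 8.40 in controls. All 15 h arrays lay below the other 10, and the 24 h arrays overlapped with the controls. Cox6a2 fell by 0.55 ± 0.14 at 15 h (limma adjusted p = 0.00365) and rose by 0.76 ± 0.15 between 15 h and 24 h (adjusted p = 0.00159), both in all 4 scalings. Within the matched chip that held 15 h replicate 1 the difference at 15 h was -0.13 and was not called, and at 24 h Cox6a2 differed from control by 0.21 (adjusted p = 0.205), or by 0.33 without control replicate 3 (adjusted p = 0.0381). The ubiquitous isoform Cox6a1 had 11.55, 12.13 and 12.10 (probe 1) at 15 h and 11.89 on each 24 h array, against 12.05, 12.27, 12.07 and 12.34 in controls. Its difference at 24 h, -0.29 ± 0.12 for probe 1 and -0.18 ± 0.12 for probe 2, was not called on the quantile scale (adjusted p = 0.0552 and 0.214). That of probe 1 was called with control replicate 1 or 3 or any 15 h replicate left out (adjusted p = 0.00307 to 0.0493). Under median scaling the mean log2 signal of Cox6a1 at 24 h was 11.51 (probe 1) and 11.55 (probe 2), against 12.40 and 12.33 in controls.

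Cox7a1, the muscle form of subunit 7a, had log2 signals of 6.50, 6.63 and 6.56 at 8 h, 6.93, 6.81 and 7.03 at 15 h and 6.55, 6.54 and 6.68 at 24 h, against 6.60, 6.69, 6.52 and 6.65 in controls. All 15 h arrays lay above all others. With quantile scaling Cox7a1 rose by 0.30 ± 0.08 at 15 h (limma adjusted p = 0.00381), a difference that was 0.16 and not called under median scaling, and it fell by 0.33 ± 0.08 between 15 h and 24 h (adjusted p = 0.00869), which was called in all 4 scalings. Cox7a2, the common form, had 9.12, 8.61 and 8.55 at 15 h and 8.78, 8.93 and 8.91 at 24 h, against 9.15, 9.19, 8.87 and 8.93 in controls, and was not called against control on the quantile scale. Under median scaling its mean log2 signal was 9.29 in controls, 8.55 at 15 h and 8.51 at 24 h. Cox4i2, an isoform of subunit 4 known from lung and from low oxygen, was dim, detected on 1 of 4 control arrays, 2 of 3 at 8 h and all at 15 h and 24 h. Its values were 6.52, 6.36 and 6.26 at 15 h, against 6.20, 6.22, 6.25 and 6.16 in controls, a difference of 0.17 ± 0.07 that missed the threshold (adjusted p = 0.0543) but was called without 15 h replicate 3 (adjusted p = 0.0209) or 24 h replicate 2 (adjusted p = 0.0448).

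**Figure D4:**
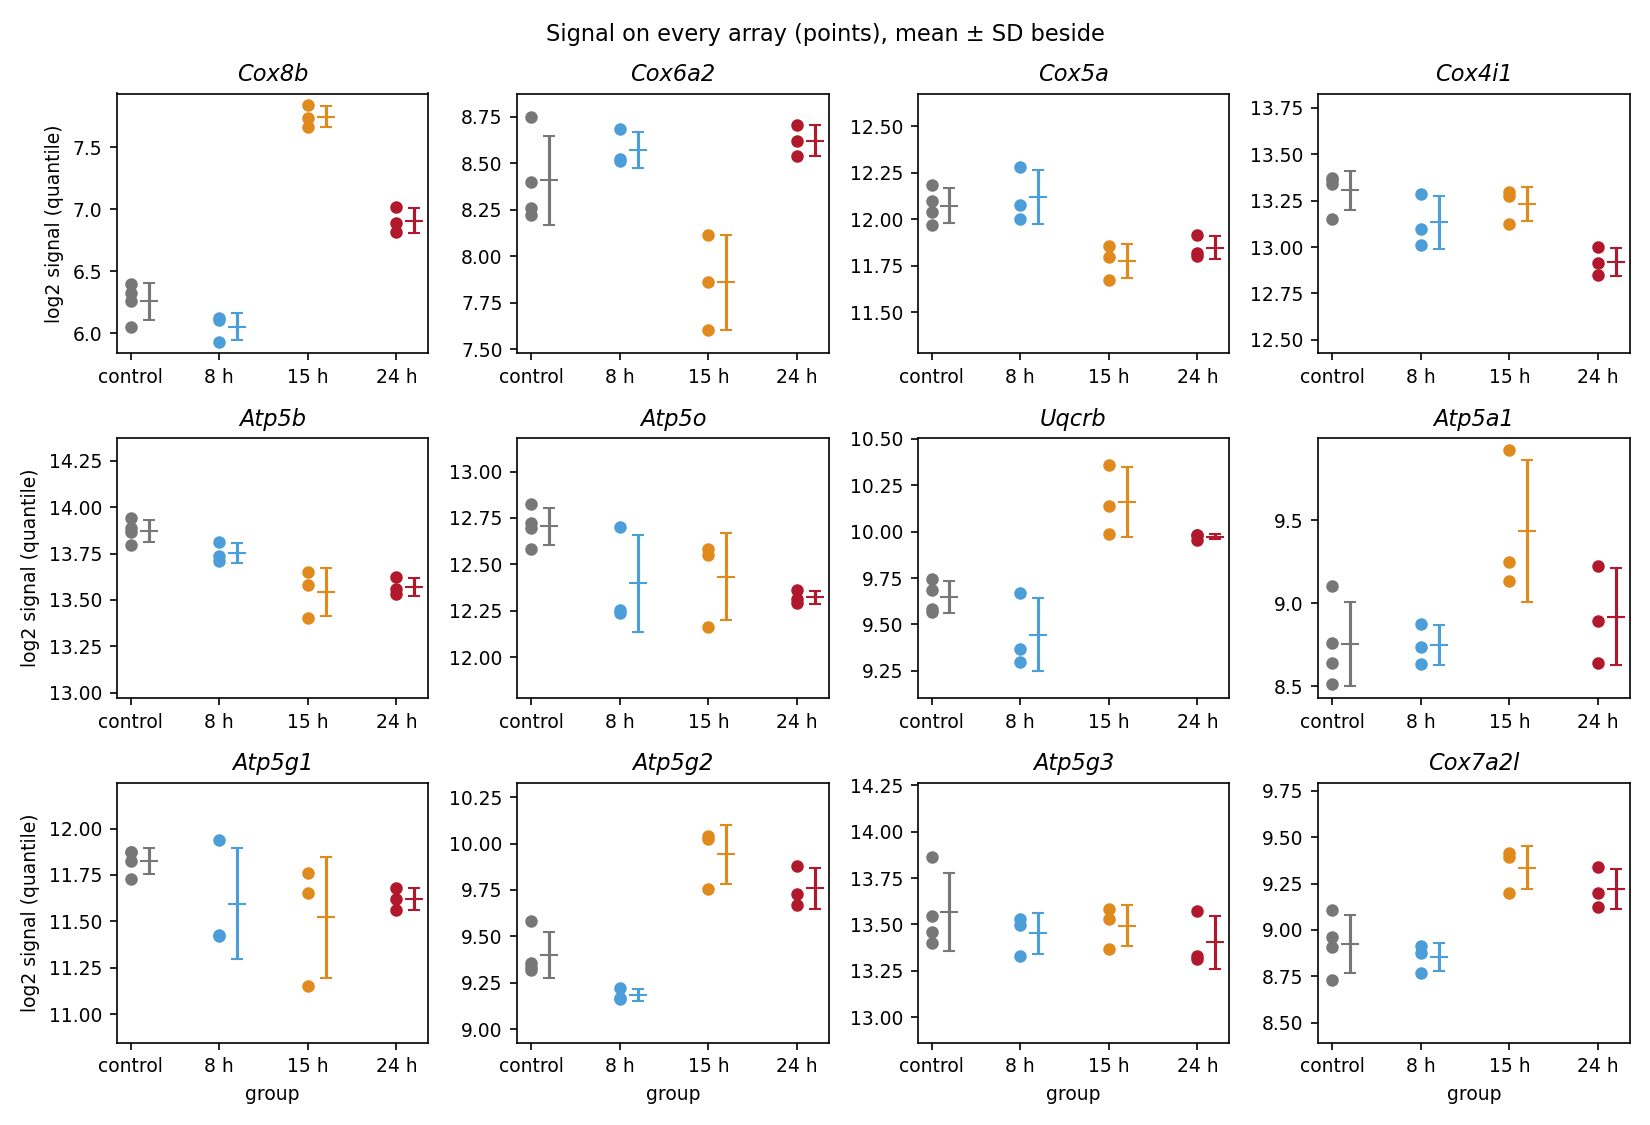
Log2 signal on the quantile scale (y axis) of 12 members on every array (points), with the group mean ± SD beside, for control (n = 4) and 8 h, 15 h and 24 h of rotenone (n = 3 each). Cox8b peaked at 15 h at 7.67 to 7.84 against 6.05 to 6.39 in controls, Cox6a2 was lowest at 15 h, and Atp5b and Cox5a were below all controls at 15 h and 24 h.

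In complex V, 3 probes were called lower and 2 higher at 15 h, and 3 lower and 1 higher at 24 h, on the quantile scale. In the catalytic head, Atp5b, the beta subunit that makes ATP, gave the brightest member probe, with a mean bead signal of 13270.0. Its log2 signal was 13.74, 13.81 and 13.71 at 8 h, 13.40, 13.58 and 13.65 at 15 h and 13.62, 13.56 and 13.53 at 24 h, against 13.87, 13.80, 13.94 and 13.89 in controls. All arrays at 15 h and 24 h lay below all controls, and Atp5b fell by 0.33 ± 0.07 at 15 h (limma adjusted p = 0.00122) and by 0.30 ± 0.07 at 24 h (adjusted p = 0.00196), in all 4 scalings. Its partner in the head, the alpha subunit Atp5a1, had 9.92, 9.14 and 9.25 at 15 h and 8.64, 8.89 and 9.22 at 24 h, against 9.11, 8.76, 8.51 and 8.64 in controls. Atp5a1 was called higher at 15 h on the quantile scale (0.68 ± 0.19, adjusted p = 0.00639). Without 15 h replicate 1, the array at 9.92, the difference was 0.44 (adjusted p = 0.0378), and with median scaling it was 0.21 and not called.

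In the stalks and the membrane part, Atp5o, the subunit that confers sensitivity to oligomycin, had log2 signals of 12.24, 12.70 and 12.25 at 8 h, 12.16, 12.58 and 12.55 at 15 h and 12.29, 12.32 and 12.36 at 24 h, against 12.69, 12.72, 12.58 and 12.82 in controls. The 24 h arrays all lay below the controls and close together. Atp5o fell by 0.38 ± 0.12 at 24 h (limma adjusted p = 0.0128). Atp5j2, subunit f of the membrane part, had 13.26, 13.28 and 13.12 at 8 h, 12.95, 13.13 and 13.12 at 15 h and 13.02, 13.06 and 13.02 at 24 h, against 13.39, 13.29, 13.28 and 13.19 in controls, so that 15 h and 24 h lay below all controls. It fell by 0.22 ± 0.07 at 15 h (adjusted p = 0.0214) and by 0.25 ± 0.07 at 24 h (adjusted p = 0.00909), and Atp5k, subunit e, fell by 0.29 ± 0.10 at 15 h (adjusted p = 0.0215), where its arrays (6.56 to 6.87) overlapped with the controls (6.76 to 7.11). All 4 of these calls held in all 4 scalings, but at 15 h that of Atp5j2 was lost without control replicate 1 (adjusted p = 0.0716) and that of Atp5k without control replicate 1 or 2 or 15 h replicate 2 or 3 (adjusted p = 0.0532 to 0.102).

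At 24 h the other central and peripheral stalk subunits, Atp5c1 (-0.03), Atp5d (-0.14), Atp5e (-0.09), Atp5f1 (0.09) and Atp5h (-0.04), were not called on the quantile scale. Under median scaling their mean log2 signals at 24 h were all below control, from 10.85 against 11.69 for Atp5d to 6.75 against 6.87 for Atp5f1. Atp5h had the smallest unadjusted p of the members at 8 h (difference -0.28 ± 0.09, limma adjusted p = 0.249), with 12.22, 12.45 and 12.13 at 8 h, against 12.50, 12.59, 12.60 and 12.49 in controls. Those 8 h arrays lay below all controls, and at 15 h and 24 h Atp5h overlapped with them. It was called at 8 h without 8 h replicate 2 (adjusted p = 0.0499), as was Atp5d without 15 h replicate 1 (adjusted p = 0.0255).

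The proton-carrying c ring of complex V is built from a single mature protein that 3 genes encode, Atp5g1, Atp5g2 and Atp5g3. On the quantile scale only Atp5g2 was called. Atp5g2 had log2 signals of 9.17, 9.22 and 9.16 at 8 h, 9.76, 10.04 and 10.02 at 15 h and 9.88, 9.67 and 9.73 at 24 h, against 9.33, 9.32, 9.36 and 9.58 in controls. All 15 h and 24 h arrays lay above all controls and all 8 h arrays below them. With quantile scaling Atp5g2 was higher by 0.54 ± 0.10 at 15 h (limma adjusted p = 0.000454) and by 0.36 ± 0.10 at 24 h (adjusted p = 0.00851), but under median scaling it differed by 0.04 and by -0.30, neither called. The call at 24 h was lost without 24 h replicate 1 (adjusted p = 0.0556).

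Atp5g1 had 11.42, 11.94 and 11.42 at 8 h, 11.15, 11.65 and 11.76 at 15 h and 11.62, 11.56 and 11.68 at 24 h, against 11.87, 11.82, 11.73 and 11.87 in controls. Atp5g3 had 13.53, 13.33 and 13.50 at 8 h, 13.58, 13.53 and 13.37 at 15 h and 13.33, 13.57 and 13.31 at 24 h, against 13.46, 13.87, 13.40 and 13.54 in controls. The 24 h arrays of Atp5g1 lay below all controls and those of Atp5g3 overlapped with them, and neither gene was called on the quantile scale (24 h differences -0.20 and -0.16, adjusted p = 0.237 and 0.209). Under median scaling both were called lower at 24 h, by 0.87 and 0.42. Atp5g1 was called lower at 15 h without 15 h replicate 3 (adjusted p = 0.0319) or 8 h replicate 2 (adjusted p = 0.0448).

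The promoters of the 3 c-subunit genes are shown for comparison, since their products are the same mature protein. NRF1 (nuclear respiratory factor 1) is a transcription factor known to bind promoters of many respiratory genes, and its motif was searched on both strands as GCGCA and GCGC on either side of any 1 base. Each promoter covers 300 bases in RefSeq build GRCm38.p6, all on the minus strand and printed in the direction of transcription, at chr11:96075582-96075881 for Atp5g1, chr15:102670998-102671297 for Atp5g2 and chr2:73911277-73911576 for Atp5g3. Capitals mark the match, which begins at position -42 from the start in Atp5g2 and at position 13 in Atp5g3, while these letters are not in the window of Atp5g1.
Atp5g1: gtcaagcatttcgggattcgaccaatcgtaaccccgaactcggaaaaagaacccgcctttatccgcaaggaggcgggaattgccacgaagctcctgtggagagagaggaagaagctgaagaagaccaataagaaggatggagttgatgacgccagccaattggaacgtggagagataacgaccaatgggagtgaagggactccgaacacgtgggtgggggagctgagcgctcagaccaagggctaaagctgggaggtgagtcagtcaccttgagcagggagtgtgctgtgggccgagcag
Atp5g2: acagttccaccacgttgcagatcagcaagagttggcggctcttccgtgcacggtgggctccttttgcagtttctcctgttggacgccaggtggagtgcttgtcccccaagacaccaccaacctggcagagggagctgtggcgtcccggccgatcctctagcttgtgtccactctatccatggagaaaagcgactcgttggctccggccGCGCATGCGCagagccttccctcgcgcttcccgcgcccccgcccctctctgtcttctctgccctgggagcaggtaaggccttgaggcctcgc
Atp5g3: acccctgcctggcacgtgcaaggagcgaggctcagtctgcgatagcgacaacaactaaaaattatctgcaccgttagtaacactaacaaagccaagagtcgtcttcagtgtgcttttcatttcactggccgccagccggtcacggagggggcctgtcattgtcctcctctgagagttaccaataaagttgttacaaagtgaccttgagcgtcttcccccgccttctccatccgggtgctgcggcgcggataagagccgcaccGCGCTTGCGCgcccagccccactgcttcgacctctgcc

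Promoters were at hand for 30 of the 39 member genes, as 33 windows, and 10 of the windows (30.3%), each of another gene, held the NRF1 motif, against 4.60% of all 32851 windows. Counted by gene, 33.3% of the 30 held it in any window, against 5.19% of all 27025 genes in the table. The 10 were Sdha, Sdhd, Uqcrc1, Cox6a1, Atp5c1, Atp5g2, Atp5g3, Atp5h, Atp5k and Atp5o. On the quantile scale Atp5k at 15 h and Atp5o at 24 h were called lower than control, and Atp5g2 higher. Sdha was not tested, and the other 6 were not called against control on that scale. Under median scaling Sdhd and Atp5g3 among those 6 were called lower at 24 h, and Uqcrc1 at 15 h and 24 h. The mean log2 signals of Cox6a1, Atp5c1 and Atp5h also lay below control at 24 h under that scaling. They were 11.51 and 11.55 for the probes of Cox6a1, against 12.40 and 12.33 in controls. For Atp5c1 the mean was 11.74, against 12.34, and for Atp5h 12.16, against 12.73. AAGATGGCG, the motif of YY1, was in 2 of the 33 windows (6.06%), against 1.40% of all windows, and CCGGAAGT, a motif of ETS factors such as GABP, in 3 (9.09%), against 3.89%. A match is a description of letters, not of binding.

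Cox7a2l, the supercomplex factor, had log2 signals of 8.91, 8.77 and 8.88 at 8 h, 9.20, 9.41 and 9.39 at 15 h and 9.12, 9.34 and 9.20 at 24 h, against 8.96, 8.91, 8.73 and 9.11 in controls. Arrays at 15 h and 24 h lay above all controls. Cox7a2l was higher with quantile scaling by 0.41 ± 0.11 at 15 h (limma adjusted p = 0.00498) and by 0.29 ± 0.11 at 24 h (adjusted p = 0.0298), but with median scaling the direction turned, to -0.08 and -0.33, neither called. The call at 24 h was lost without control replicate 2 or 3 or 24 h replicate 2 or 3 (adjusted p = 0.061 to 0.137).

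Between times the same groups can be set against each other without the controls. At 15 h against 8 h, 5 members were called lower and 8 higher, against 24.4% and 24.1% of all probes. Cox5a (-0.34), Cox6a2 (-0.71), Cox7a2 (-0.42), Atp5b (-0.21) and Atp5k (-0.33) were lower in all 4 scalings. Cox8b was the member called higher in all 4, while under median scaling Sdhd (0.36 on the quantile scale), Atp5h (0.31) and Cox7a2l (0.48) turned to -0.10, -0.08 and -0.01. Without 15 h replicate 1 the difference was 0.44 for Atp5a1 (0.69 with it) and -0.14 for Atp5b, which was then not called. At 24 h against 15 h, 4 members were called lower and 1 higher, against 9.31% and 10.8% of all probes: Cox4i1, Cox7a1, Cox8b and Atp5e (-0.32) were lower and Cox6a2 was higher. Atp5e, the epsilon subunit, was not called under median scaling (adjusted p = 0.0818), nor without 15 h replicate 3 or any 24 h replicate (adjusted p = 0.0553 to 0.152). Without 15 h replicate 3, or 24 h replicate 1 or 2, Cox4i1 was not called either (adjusted p = 0.0653 to 0.0956), which left 3 calls.

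Complexes need dedicated assembly factors, and 24 of their genes (26 probes) were tested. On the quantile scale 4 probes were called lower and 7 higher at 15 h, against 23.7% and 24.2% of all probes. At 24 h 6 were called lower and 4 higher, against 27.0% and 25.9% of all probes. Under median scaling 12 were called lower at 15 h and 15 at 24 h, and none higher. All probes then gave 39.4% lower and 12.3% higher at 15 h, and 47.1% and 12.8% at 24 h. The largest falls at 24 h were those of Ttc19 (0.84 ± 0.10), a factor of complex III and Sdhaf4 (0.68 ± 0.09), which helps to mature the flavoprotein of complex II (limma adjusted p = 3.65e-06 and 1.54e-05). Under median scaling they fell by 1.5 and 1.31.

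The largest rises at 24 h on the quantile scale were those of Cox17, the copper chaperone of complex IV (0.92 ± 0.09, limma adjusted p = 6.01e-07) and Coa6, another complex IV factor (0.84 ± 0.09, adjusted p = 8.43e-07). Under median scaling neither Cox17 (0.23) nor Coa6 (0.17) was called. On the quantile scale Cox17 lay at 10.45 to 10.67 at 24 h, against 9.56 to 9.80 in controls, and Ttc19 at 9.33 to 9.47, against 10.13 to 10.35, so neither overlapped.

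Atpif1, which encodes the inhibitor that stops complex V from running backwards and burning ATP, differed from control by more than any tested complex V probe at 15 h and 24 h, under both scalings. Its log2 signal was 13.87 to 13.89 at 8 h, 13.01 to 13.15 at 15 h and 12.85 to 12.91 at 24 h, against 13.58 to 13.92 in controls. It fell by 0.70 ± 0.08 at 15 h (limma adjusted p = 2.59e-06) and by 0.92 ± 0.08 at 24 h (adjusted p = 7.64e-08), and by 0.88 and 1.27 under median scaling. Cycs, somatic cytochrome c, the electron carrier between complexes III and IV, differed by 0.11 ± 0.08 at 8 h, -0.16 ± 0.08 at 15 h and 0.16 ± 0.08 at 24 h and was not called, but under median scaling it was called lower at 15 h (by 0.69) and 24 h (by 0.54).

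Of the nuclear regulators of respiratory genes, 13 probes for 10 genes were tested. On the quantile scale 1 was called lower and 6 higher at 15 h (probes of Gabpa, Gabpb1 and Ppargc1a), against 23.7% and 24.2% of all probes. The 6 include probe 3 of Gabpa, which passed the filter through the 15 h arrays alone, so its call carries no weight. At 24 h none was called lower and 3 higher, against 27.0% and 25.9% of all probes. Under median scaling 3 were called lower and 4 higher at 15 h (39.4% and 12.3% of all probes). At 24 h that scaling called 5 lower and none higher (47.1% and 12.8%). Ppargc1a, the coactivator PGC-1alpha, differed by -0.01 at 8 h, rose by 1.11 ± 0.12 at 15 h (limma adjusted p = 1.62e-06, and 0.72 under median scaling, also called), and differed by 0.25 ± 0.12 at 24 h (adjusted p = 0.0867, and -0.19 under median scaling). Its 15 h arrays, at 8.48 to 8.78, lay above all controls, at 7.38 to 7.67. Gabpa (probe 1), the DNA-binding subunit of GABP, rose by 0.83 ± 0.09 at 15 h and, on the quantile scale, by 0.45 ± 0.09 at 24 h, where median scaling gave 0.19 and no call. Its probe 2 was called higher by 0.29 at 15 h, not under median scaling, and differed by 0.21 at 24 h. Probe 3 was detected on the 15 h arrays alone, so it passed the filter through them and its level in controls is only a bound, which makes it at least 1.06-fold higher at 15 h. Gabpb1 (probe 1), its partner, was higher by 0.71 at 24 h on the quantile scale and by 0.31 without a call under median scaling. Nrf1 differed by -0.07, 0.25 and -0.17 at 8 h, 15 h and 24 h, and Tfam, which packages and transcribes mitochondrial DNA, by -0.13, 0.03 and -0.10, none called on the quantile scale. Under median scaling both were called lower at 24 h, Nrf1 by 0.71 and Tfam by 0.65.

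**Figure D5:**
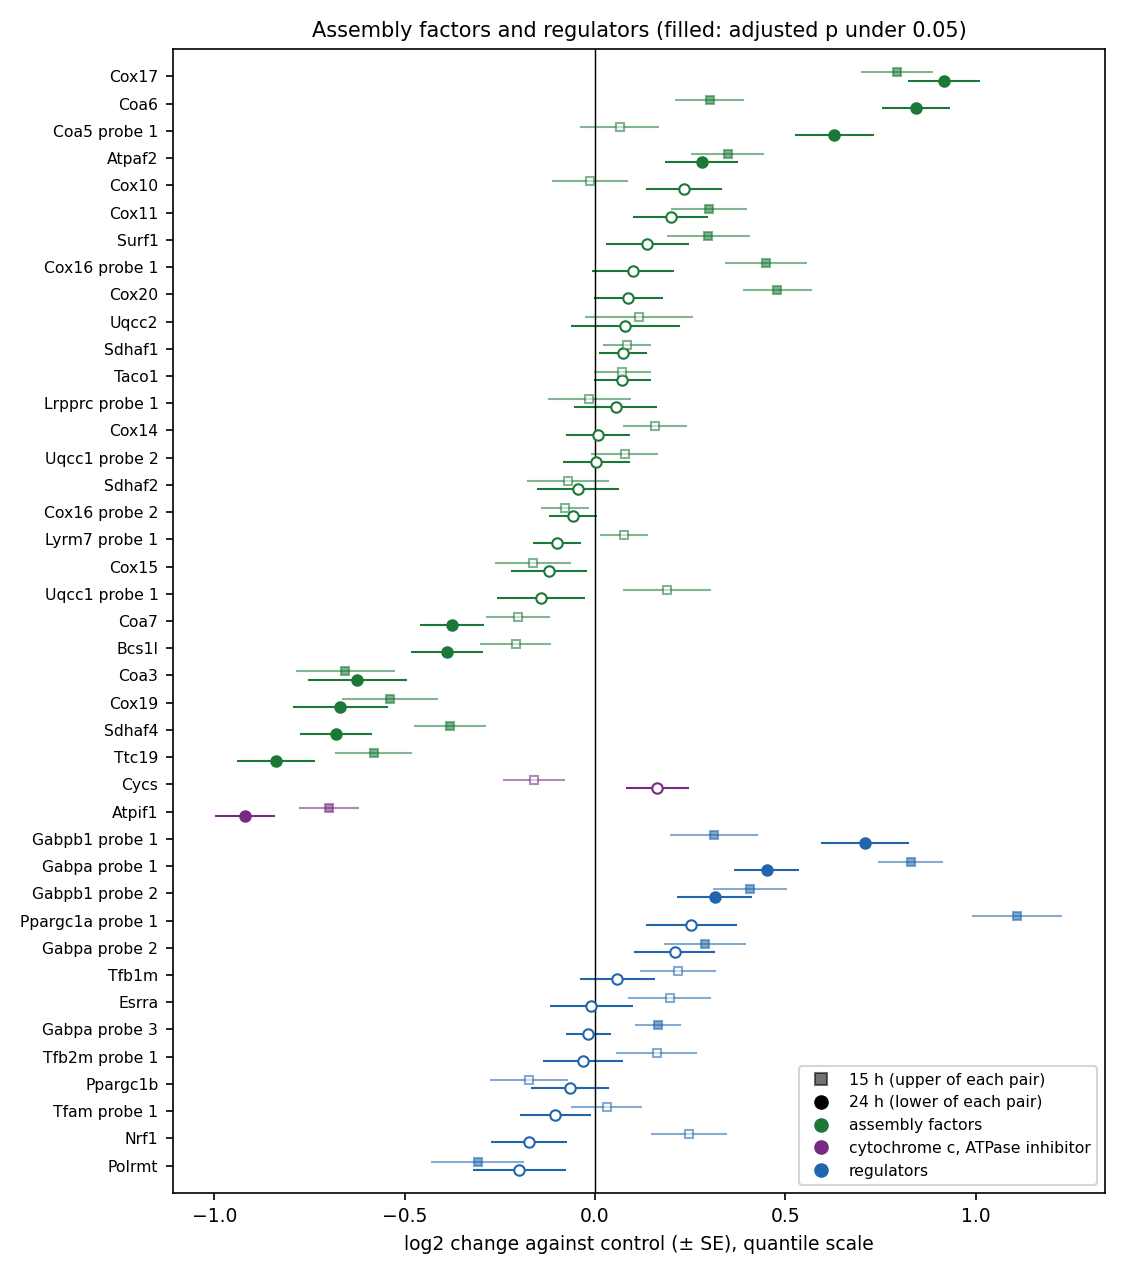
Log2 change against control (x axis, ± standard error, quantile scale) at 15 h (squares) and 24 h (circles) for tested probes of assembly factors, cytochrome c and the ATPase inhibitor, and regulators (y axis), with filled symbols at an adjusted p under 0.05. Cox17 stands at 0.92 and Atpif1 at -0.92 at 24 h, and Ppargc1a at 1.11 at 15 h and 0.25 at 24 h.

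Complexes II to V can be set beside complex I, the target of rotenone, and the mitochondrial ribosomal proteins, which make the mitochondrially encoded subunits. On the quantile scale complex I (37 probes tested) had 4 probes called lower and 7 higher at 15 h and 7 lower and 3 higher at 24 h, with a median of -0.07 at 24 h, and the mitochondrial ribosomal proteins (92 probes) had 11 lower and 20 higher, and 11 lower and 17 higher, with a median of 0.00. Of all probes 23.7% were called lower and 24.2% higher at 15 h, and 27.0% and 25.9% at 24 h. The median member of complexes II to V stood at -0.06 at 24 h. Under median scaling 28 of the 37 complex I probes and 70 of the 92 ribosomal protein probes were called lower at 24 h, as were 29 of the 38 members, with medians of -0.70, -0.54 and -0.60. Of all probes 47.1% were then called lower. The differences between these lists were not tested.

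Some subunits had probes that carry their accession under another or no symbol. Uqcrh, the hinge protein of complex III (mean bead signal 4923), differed by -0.01 ± 0.12 at 24 h, Uqcr10, a small complex III subunit (6182), by 0.02 ± 0.07, and Atp5mpl, a small subunit of ATP synthase (5641), by 0.03 ± 0.09, none called on the quantile scale and all called lower under median scaling. Cox6b2, the testis form of subunit 6b, was dim, with mean bead signals of 82.8 and 57.2 for its 2 probes, and was called higher at 24 h by 0.48 (limma adjusted p = 0.000648) and 0.22 (adjusted p = 0.00638), and by 0.28 and 0.20 under median scaling. The second Atp5j probe, which the file describes as Gabpa, fell by 0.41 ± 0.13 at 15 h (adjusted p = 0.0162) and differed by -0.32 ± 0.13 at 24 h (adjusted p = 0.0516, and called lower by 0.79 under median scaling). Probes for Uqcrq, Cox7b2 and Atp5md did not pass the detection filter.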

How the data were processed

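Per the labels' protocols, RNA was isolated with RNeasy and made into biotinylated cRNA with the Ambion MessageAmp kit, and the arrays were Illumina MouseRef-8 V1.1. The deposited bead intensity per probe is neither normalized nor background-subtracted, and the authors' normalized values are the ratio of this intensity to the array's median and then to the control median, found by recomputing them (largest relative difference 3.75e-07). Detection scores are a fraction per gene from BeadStudio 3.2.6 with normalization none, per the file headers of the deposited gene profile. That profile has 102 other per-sample columns, which were not used here.

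Intensities were background-corrected (limma 3.58.1 in R 4.3.3, normexp, offset 50), quantile-normalized over 13 arrays and log2-transformed. Probes with a detection p under 0.05 on at least 3 arrays were kept (14345), and limma with a trend was fitted to all 4 groups (9 residual degrees of freedom), with Benjamini-Hochberg adjustment over all kept probes and an adjusted p threshold of 0.05. The deposited detection scores are per gene, so each probe got 1 from its own signal, through a monotone (isotonic) curve fitted on each array. On each array 13248 genes with 1 probe were compared with the profile. The curve was fitted to the scores of the 98.6% of them whose signal the profile repeats within 0.05. The detection p is 1 minus the score read from the curve. The neqc method, which needs measured probe values, was therefore not run, and normexp took its place. For each sample, the array with identical signals differs from the array named in its labels, within the same group, so both chip assignments were tried. Alternatives were median scaling, no scaling, the authors' values, other filters, no background correction, the brightest probe per gene, chip and replicate-number blocks, only the groups compared, and each array left out. The fit was tested on simulated data. Precision is limited by the number of arrays, since arrays give no read depth.

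The members and lists were chosen with earlier results of these data known. Every member may be named. Values on every array are given for the 3 members per complex with the largest called, non-overlapping change at 24 h, for called members that moved against most of their complex and for detected tissue isoforms, and other members are described beside them. Of assembly factors, regulators, cytochrome c and the ATPase inhibitor, the 3 largest falls and 3 largest rises at 24 h are named, with Cycs, Nrf1, Gabpa, Tfam and Ppargc1a. Replicates with the same number in different groups correlated between -0.113 and 0.192 (18 pairs) and other pairs between -0.226 and 0.21, so the numbers were not taken to pair samples. Promoters are from RefSeq, build GRCm38.p6.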

Additional observations from a re-analysis of the deposited data

Results flagged for a closer look

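In 42 sets of control values, the gap of 1 array to its nearest neighbour, divided by the whole range, passed Dixon's critical value in 4, where chance gives about 1 in 20. The ratio was 0.861 for Cox4i1 and 0.833 for the complex IV level, where control replicate 3 was low, 0.839 for Cox5b, where replicate 1 was high, and 0.851 for Atp5g2, where replicate 4 was high.

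The effects of rotenone at 2 times differed by limma's test of the times against each other, which is the difference of their changes from the shared controls. At 15 h against 8 h the log2 difference was 0.36 for Sdhd (adjusted p = 0.0318), 0.72 for Uqcrb (adjusted p = 0.000119), -0.34 for Cox5a (adjusted p = 0.00687), -0.71 for Cox6a2 (adjusted p = 0.000775), 0.36 for Cox7a1 (adjusted p = 0.00179) and -0.42 for Cox7a2 (adjusted p = 0.0308). Cox8b was not well above background on any 8 h array, so its measured difference of 1.69 (adjusted p = 4.64e-09) stands for a bound, at least 2.86-fold higher at 15 h. The log2 difference was 0.69 for Atp5a1 (adjusted p = 0.00906), -0.21 for Atp5b (adjusted p = 0.0325), 0.76 for Atp5g2 (adjusted p = 3.56e-05), 0.31 for Atp5h (adjusted p = 0.0118), -0.33 for Atp5k (adjusted p = 0.0138) and 0.48 for Cox7a2l (adjusted p = 0.00242). These are values on the quantile scale. With median scaling, no scaling and the authors' values the calls for Uqcrb, Atp5a1 and Atp5g2 were lost. Those for Sdhd, Atp5h and Cox7a2l turned in direction there, and that for Cox7a1 was lost without scaling. The calls for Atp5b, Atp5h, Atp5k, Cox7a2 and Sdhd were lost with 1 array left out: Atp5b without 15 h replicate 1 or 8 h replicate 1 or 2 (adjusted p = 0.0626 to 0.102), Atp5h without 8 h replicate 3 (0.0691), Atp5k without 15 h replicate 2 or 3 (0.0505 and 0.0645), Cox7a2 without 15 h replicate 2 or 3 or 8 h replicate 1 or 3 (0.107 to 0.126), and Sdhd without 15 h replicate 1 or 2 or 8 h replicate 1 or 2 (0.0648 to 0.123).

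At 24 h against 15 h the log2 difference was -0.31 for Cox4i1 (adjusted p = 0.0224), 0.76 for Cox6a2 (adjusted p = 0.00159), -0.33 for Cox7a1 (adjusted p = 0.00869), -0.84 for Cox8b (adjusted p = 1.96e-05) and -0.32 for Atp5e (adjusted p = 0.0342). Cox4i1 lost its call without 15 h replicate 3 or 24 h replicate 1 or 2 (adjusted p = 0.0653 to 0.0956), and Atp5e without 15 h replicate 3 or any 24 h replicate (adjusted p = 0.0553 to 0.152). The call for Atp5e was also lost with median scaling, no scaling and the authors' values.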

How the results depend on the processing

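Of the 39 called member results, 24, 23 and 24 kept call and direction with median scaling, no scaling and the authors' values, and 7, 9 and 7 turned. No direction turned in the other alternatives run, but within the labels' chips 1 and 2 only 10 and 15 calls were kept, and within matched chips 1 and 2 19 and 34. With median scaling, no scaling and the authors' values, members called were 26, 28 and 24 at 15 h against control (12 with quantile scaling), 30, 36 and 29 at 24 h (9), and 23, 23 and 23 at 15 h against 8 h (13). Of all probes 51.6%, 52.8% and 50.7% were called at 15 h (47.9% with quantile scaling), and 59.9%, 66.6% and 58.2% at 24 h (52.9%). At 15 h against 8 h these shares were 51.2%, 50% and 51.5% (48.5%). In the same order, complex medians at 15 h were -0.50, -0.59 and -0.48 for complex II, -0.66, -0.75 and -0.64 for III, -0.46, -0.55 and -0.44 for IV and -0.45, -0.54 and -0.43 for V. At 24 h they were -0.67, -0.80 and -0.62 for II, -0.71, -0.85 and -0.61 for III, -0.69, -0.83 and -0.59 for IV and -0.53, -0.66 and -0.42 for V. At 8 h the authors' values gave -0.13 for III and -0.037 for IV, and median scaling -0.062 for IV. Directions turned, again in that order, for Uqcrb (-0.35, -0.48, -0.26), Atp5g2 (-0.30, -0.43, -0.20) and Cox7a2l (-0.33, -0.46, -0.24) at 24 h, for Cox7a2l at 15 h (-0.078, -0.17, -0.057), and at 15 h against 8 h for Sdhd (-0.10, -0.14, -0.10), Atp5h (-0.075, -0.12, -0.080) and Cox7a2l (-0.0088, -0.056, -0.012). Without scaling Uqcrb (-0.077) and Atp5g2 (-0.052) also turned at 15 h. The cause was not tested. With the matched chip as a block 19 members were called at 15 h (49.7% of all probes). Within the labels' chips 1 and 2, then matched chips 1 and 2, calls were 3, 5, 7 and 24 at 15 h (30.0%, 21.1%, 28.5% and 59.0% of all probes), 1, 7, 3 and 18 at 24 h (24.9%, 40.3%, 30.2% and 61.4%), 5, 6, 10 and 26 at 15 h against 8 h (31.7%, 21.5%, 35.5% and 54.3%), and 1, 1, 1 and 22 at 24 h against 15 h (2.29%, 4.38%, 5.08% and 42.7%), with 12 at 8 h in matched chip 2 (12.1%). These fits hold fewer arrays, and a group with 1 array in a chip is assumed to vary like the others. With 1 array left out, calls ranged from 0 to 1 at 8 h, 10 to 17 at 15 h, 6 to 14 at 24 h, 10 to 19 at 15 h against 8 h and 3 to 7 at 24 h against 15 h. In the same order, the shares of all probes called were 0.0837% to 1.21%, 42.5% to 49.7%, 46.1% to 59%, 42.3% to 49% and 13.7% to 22.6%. With replicate number as a block 0, 12, 9, 12 and 5 members were called in those comparisons (0.132%, 44.9%, 50.2%, 48.2% and 19.5% of all probes). Cox5a at 24 h (-0.19) and Atp5b at 15 h against 8 h then lost their calls. The strict detection filter, no background correction and the brightest probe per gene kept all 39 called member results. The counts over bright probes and the summed signal shares were chosen after seeing the data. Dim probes (Cox8b, Cox4i2) lie close to background, so their folds are least certain.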
